A study of Mus musculus with 3 samples.

Results

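Natural killer cells kill by releasing cytotoxic granules, and the 8 genes described here encode proteins that fill those granules or protect the killer cell from them. They are Srgn and Nkg7 (granule matrix and membrane), Ctsw, Ctsc and Ctsd (cathepsin proteases), and Serpinb9, Serpinb6a and Serpinb6b (serpins, intracellular protease inhibitors). They were chosen by symbol for these roles, and are 8 of 21938 protein-coding genes in the annotation used. For each one, every DNase I hypersensitive peak and every footprint that overlapped the gene body or the 10 kb on either side (its window) was taken from each library, in coordinates of the mouse assembly mm10. Peaks are sites where DNase I cut often, which marks open chromatin, and footprints are short stretches protected from cutting, most of which lay inside a peak.

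The series holds 1 group of 3 DNase-seq libraries, made from primary natural killer cells of adult B6CASTF1/J males, virgin and 2 months old; these animals are offspring of C57BL/6J and CAST/EiJ parents. No other genotype, treatment or cell type was included, so no contrast between conditions exists and no test was run. The 3 libraries bear 1 donor label and differing biosample labels, nothing tells whether animals were pooled, and the spread between them may be technical. Replicates 1, 2 and 3 held 40484, 84564 and 81854 peaks and 101990, 239483 and 222990 footprints, and read depth is unknown. Natural killer markers had promoter peaks in 7, 10 and 10 of 10 genes, none of 7 neutrophil markers had one in any library, and B cell markers had them in 6, 7 and 6 of 7.

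A cytotoxic granule is a modified lysosome. Its proteases and its pore-forming protein are packed on serglycin, a proteoglycan whose negatively charged sugar chains hold them, and cathepsin C trims the granzymes into their active form. Serpins of clade B stay in the cytosol and nucleus of the killer cell, where they trap proteases that leak from the granules by forming a permanent complex with them. DNase-seq reads none of these proteins or their RNAs; it shows which DNA around their genes was accessible.

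The accessible DNA itself is shown first for 9 elements, each printed 5′ to 3′ on the strand of its gene from the reference genome (GRCm38, the same build as mm10, which carries the C57BL/6J allele; the CAST allele is not seen here). Capitals mark bases that lay inside a footprint in at least 2 of the 3 libraries. The 6 promoter stretches and 3 distal sites were picked so that each of the 8 genes has at least 1, exons being left out beyond 30 bases. For Srgn, an intronic site is shown (chr10:62500281-62500500), and for Nkg7 and Ctsw the DNA just upstream of the first start site (chr7:43436773-43437072 and chr19:5468508-5468640).
Srgn intronic site: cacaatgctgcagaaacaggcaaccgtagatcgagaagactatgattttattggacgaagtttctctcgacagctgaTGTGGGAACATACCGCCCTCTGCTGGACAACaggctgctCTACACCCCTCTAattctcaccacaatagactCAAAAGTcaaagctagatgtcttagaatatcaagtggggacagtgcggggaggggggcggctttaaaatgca
Nkg7 promoter: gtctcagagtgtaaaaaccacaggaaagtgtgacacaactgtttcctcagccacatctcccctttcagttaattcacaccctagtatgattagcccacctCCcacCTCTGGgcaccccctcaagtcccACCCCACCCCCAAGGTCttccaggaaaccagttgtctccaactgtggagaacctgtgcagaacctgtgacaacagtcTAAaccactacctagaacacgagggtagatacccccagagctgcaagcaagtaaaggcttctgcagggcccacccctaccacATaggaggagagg
Ctsw promoter: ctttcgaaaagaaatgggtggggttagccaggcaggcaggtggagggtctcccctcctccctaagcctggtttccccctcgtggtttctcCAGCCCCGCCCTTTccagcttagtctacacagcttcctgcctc

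For Ctsc the promoter is shown (chr7:88277941-88278084), and for Ctsd a promoter footprint (chr7:142387908-142387937) and a site upstream of the gene (chr7:142396661-142396940).
Ctsc promoter: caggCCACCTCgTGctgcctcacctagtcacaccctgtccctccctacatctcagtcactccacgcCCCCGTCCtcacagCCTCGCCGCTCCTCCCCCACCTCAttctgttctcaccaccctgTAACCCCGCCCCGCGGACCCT
Ctsd promoter footprint: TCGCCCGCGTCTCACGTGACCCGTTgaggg
Ctsd upstream site: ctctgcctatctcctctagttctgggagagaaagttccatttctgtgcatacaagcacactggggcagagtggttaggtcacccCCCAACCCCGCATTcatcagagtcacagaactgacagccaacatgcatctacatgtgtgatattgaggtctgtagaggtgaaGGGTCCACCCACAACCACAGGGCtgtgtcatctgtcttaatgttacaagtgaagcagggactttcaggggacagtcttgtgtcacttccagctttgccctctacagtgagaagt

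For the serpins these are the promoters of Serpinb9 (chr13:33004421-33004540) and Serpinb6a (chr13:34002795-34002873) and the intronic site that was the strongest peak at Serpinb6b (chr13:32966141-32966420).
Serpinb9 promoter: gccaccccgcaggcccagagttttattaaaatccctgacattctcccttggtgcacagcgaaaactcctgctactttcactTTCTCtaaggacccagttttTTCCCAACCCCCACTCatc
Serpinb6a promoter: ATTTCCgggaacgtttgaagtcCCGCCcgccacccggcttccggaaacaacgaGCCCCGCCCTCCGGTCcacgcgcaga
Serpinb6b intronic site: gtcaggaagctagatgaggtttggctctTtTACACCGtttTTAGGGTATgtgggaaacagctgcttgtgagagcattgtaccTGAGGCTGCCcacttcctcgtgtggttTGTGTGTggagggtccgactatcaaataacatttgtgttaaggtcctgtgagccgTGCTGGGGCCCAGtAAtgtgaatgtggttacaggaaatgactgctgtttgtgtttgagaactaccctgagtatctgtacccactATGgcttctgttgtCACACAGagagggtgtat

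All 8 genes had an open promoter in every library. A promoter here spans 500 bp to either side of any annotated start, and open means that it shares at least 1 bp with a peak. Such a peak was present in all 3 replicates at 8 of 8 genes, against 52.5% of all protein-coding genes, and a footprint lay in the promoter in all 3 replicates at 8 of 8, against 49.8%. Not every start was open, and some starts of Srgn, Ctsw, Ctsc, Serpinb6a and Serpinb6b had no peak in any library. At Serpinb6a the open promoter is shared with the gene Ripk1, and its peaks cannot be assigned to one gene. The strength of a promoter is given as the percentile of its strongest peak among all peaks of that library, ranked on the deposited signal. The lists differ in length, so a percentile gives the rank of a peak in its own list, and a difference in percentile between libraries is not a measure of a difference in accessibility.

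The mean percentile of Ctsc, Serpinb6a and Ctsd lay above the median of all open promoters and that of the other 5 below it. The median over the 8 was 83.1, against 89.4 over the 11507 protein-coding genes with a promoter peak in all 3 libraries. The order, from the highest mean, was Ctsc, Serpinb6a, Ctsd, Nkg7, Srgn, Serpinb9, Serpinb6b and Ctsw. Of the 7 neighbouring pairs, Ctsd over Nkg7, Srgn over Serpinb9, Serpinb9 over Serpinb6b and Serpinb6b over Ctsw stood in that order in each of 3 libraries. Ctsc and Serpinb6a, Serpinb6a and Ctsd, and Nkg7 and Srgn changed places between libraries. Ctsw stood below Serpinb6b by 26.4 points in replicate 1 and by 1.85 and 3.83 points in replicates 2 and 3.

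**Figure D1:**
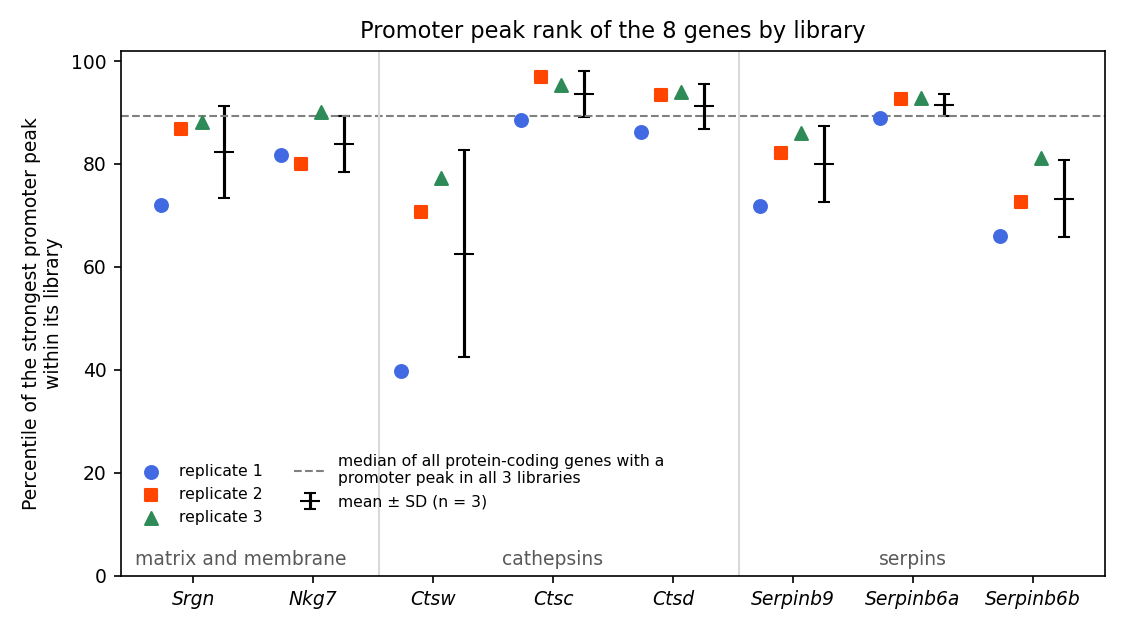
Percentile of the strongest promoter peak within its library (0 to 100, vertical axis) for the 8 genes in order of role (horizontal axis), with 1 point per replicate, the mean ± SD (n = 3) in black and the median of all 11507 open protein-coding genes (89.4) as a dashed line. The means of Ctsc, Ctsd and Serpinb6a lie above the line and those of the other 5 below it, and Ctsw has the widest spread, with 39.7 in replicate 1.

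The 3 promoters of highest rank were also the 3 richest in CpG. CpG was counted from 250 bases before to 50 after the start site nearest the strongest promoter peak of replicate 2. The ratio of observed to expected CpG there was 1.12 at Serpinb6a, 0.932 at Ctsd and 0.514 at Ctsc. It was 0.325 at Serpinb6b, 0.281 at Srgn, 0.265 at Serpinb9, 0.182 at Ctsw and 0.0875 at Nkg7. The median was 0.303 over the 8 genes and 0.793 over all genes with an open promoter, so most of these promoters are of the CpG-poor kind. Nkg7 had a lower ratio than all but 0.574% of open genes.

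The windows were richer in sites than those of most genes. Peaks of the 3 libraries that overlapped were merged into regions, and the 8 windows held 62 regions, of which 35 (56.5%) had a peak in every library, against 35.3% of all regions in the genome. The median window held 4.5 such regions, against 1 over all protein-coding genes, at median window lengths of 34.3 and 37.4 kb. At least 2 were found at 8 of 8 genes, against 49.2% of all genes, at least 3 at 7, against 31.9%, at least 4 at 5, against 19.2%, and at least 5 at 4, against 11.1%. All genes here include the 38.3% without a promoter peak in any library, while all of the 8 were open. Ctsc, with 2 such regions, held more than only 50.8% of genes, and 58.2% had a lower density. Of the 35 regions, 12 lay in a promoter of the gene itself, 8 in the promoter of a neighbouring coding gene, 8 in introns and 7 outside the gene.

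**Figure D2:**
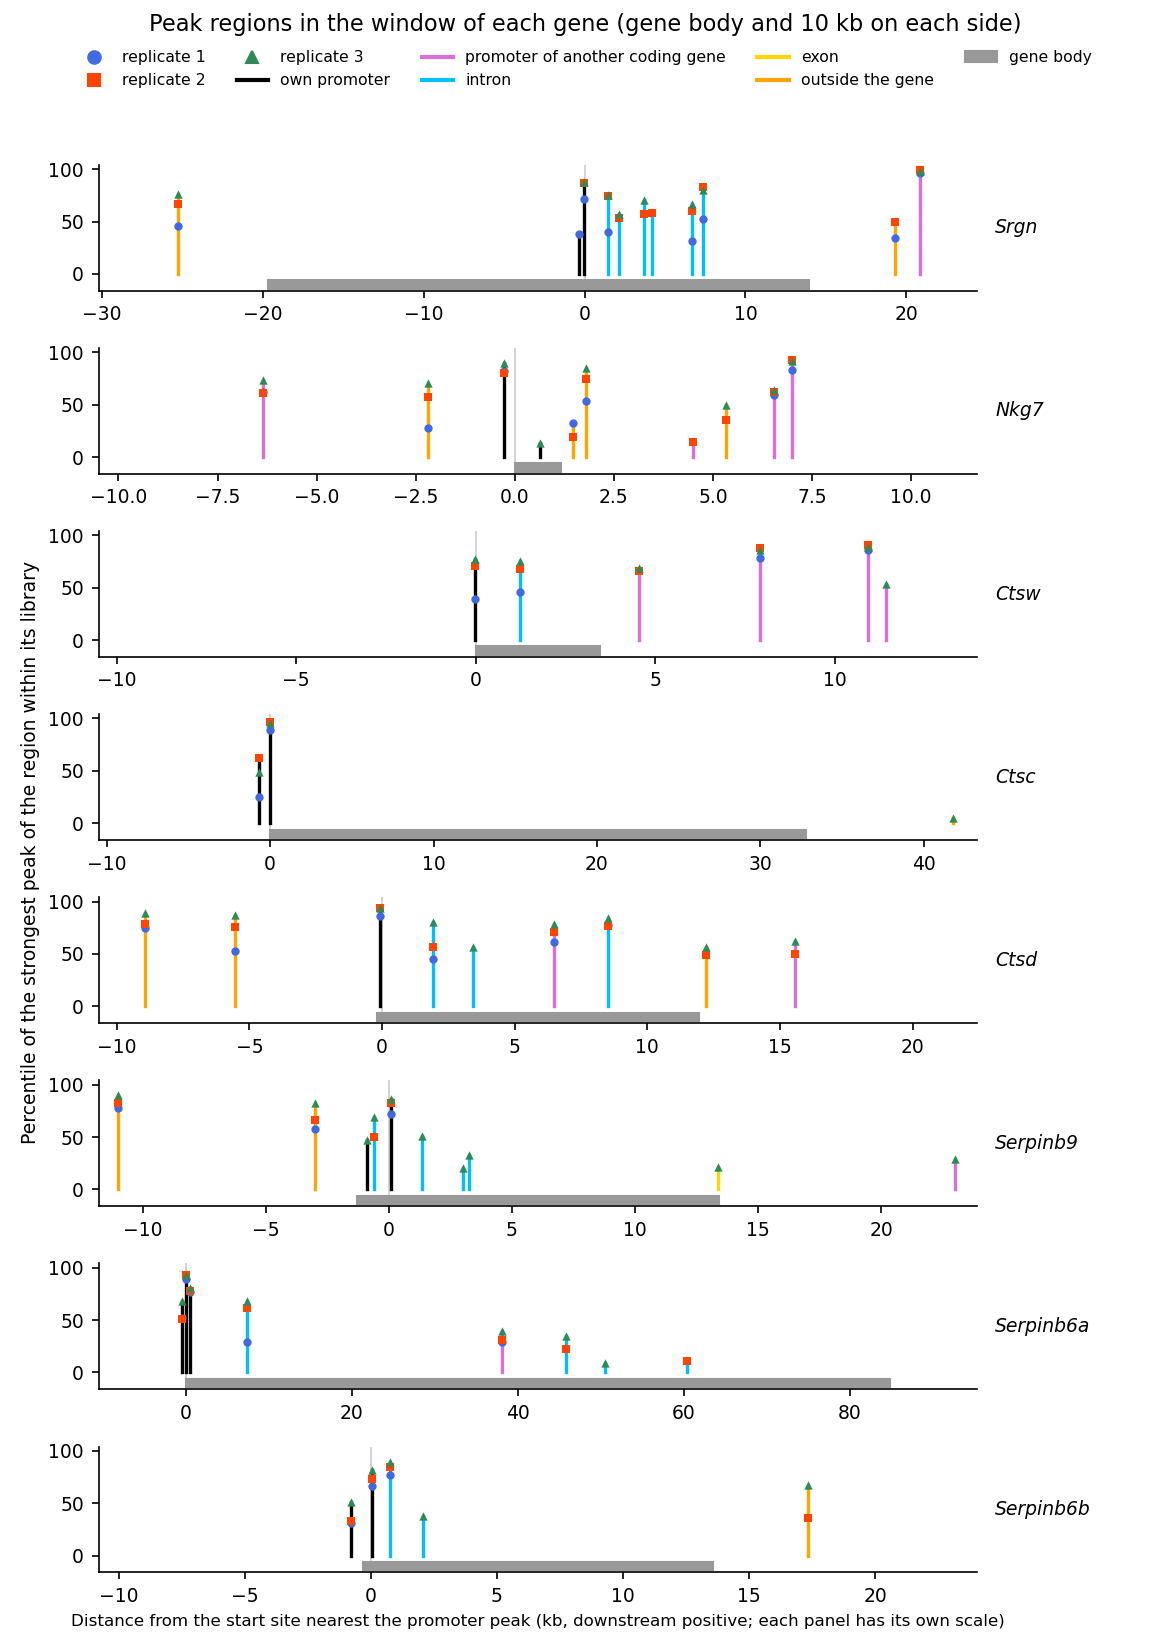
Peak regions in the window of each gene, placed by the distance of their middle from the start site nearest the promoter peak (kb, horizontal axis, downstream positive, with a separate scale per gene) and drawn to the percentile of their strongest peak in each library (vertical axis, 1 symbol per library in which a peak was found). Line colours give the kind of region and grey bars the gene body. Ctsc holds only promoter regions apart from 1 weak peak of replicate 3, while Nkg7, Srgn and Ctsd hold 6 regions each that were found in all 3 libraries.

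Srgn encodes serglycin, the core protein of the granule matrix (chromosome 10, 62493833 to 62527451, minus strand). Signals of 2.01, 4.26 and 5.28 were called at its promoter in replicates 1, 2 and 3, at percentiles 72.0, 86.7 and 88.2 (82.3 ± 8.98, SD, n = 3). Replicate 1, the shortest list, stood lowest and the other two close together. The peak lay at the start sites at 62507755, 62507938 and 62508097, and the first 2 start sites of the gene model, 62527425 and 62527451, had no peak in any library. The open start sites thus lie inside the gene model, the nearest to the peak 19696 bp from its 5′ end.

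Beyond that promoter, 3 regions in the Srgn introns and 1 upstream of the gene model were found in all 3 libraries. The strongest intronic one, printed above, lay 7364 bp from the nearest start site, at percentiles 52.5, 83.2 and 79.7. Of its 220 bases, 51 lay in footprints of at least 2 libraries and 15 in footprints of all 3. A match to the GC box string (GGGCGG, here on the opposite strand) lay fully in footprints of at least 2 libraries there. SP and KLF factors read this string, but it can also be part of longer elements. Those were not searched, so the factor at this footprint is not known. The strongest peak of the window did not belong to Srgn: it was the promoter of the neighbouring Vps26a, a retromer subunit of endosomal sorting, at 96.4, 98.9 and 98.2. Footprints in the window numbered 26, 38 and 34, more than in 95.2% of gene windows by their mean. Merged over libraries, 15 of them were found in all 3, of which 7 lay in another gene's promoter and 4 in that of Srgn.

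Nkg7 encodes a small membrane protein of cytotoxic granules that mouse killer cells need for normal granule release (chromosome 7, 43437073 to 43438249, plus strand). Its promoter had signals of 3.06, 2.68 and 6.32, at percentiles 81.7, 80.0 and 90.1 (83.9 ± 5.40). Replicate 2 was the lowest here, which was not so at any of the other 7 genes. The promoter region was 800 bp wide, made of overlapping peaks that reached upstream, and it held 7, 13 and 9 footprints. Yet no merged footprint at this promoter was found in all 3 libraries, and none of the 300 bases printed above lay in footprints of all 3, although 30 did in those of at least 2. A CACCC box (CCACCC) in that stretch, 166 bp before the start site, lay fully inside footprints of at least 2 libraries.

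Nkg7 had the densest window of the 8, which rests on the flanks, since the gene is short: the window held 9 peaks per library on average, and the gene body alone 0.667. The window held 6 regions found in all 3 libraries within 21.2 kb, or 2.83 per 10 kb, a density above that of 99.6% of protein-coding genes. Of the 6, 3 lay at promoters of its neighbours. One region lay at the promoter of Lim2, which encodes a lens membrane protein, and 2 at that of Etfb, a subunit of the mitochondrial electron transfer flavoprotein, whose stronger site (83.4, 92.3 and 92.1) exceeded the Nkg7 promoter in all 3 libraries. The other two lay outside Nkg7, 2202 bp upstream of its start site at 27.7, 57.6 and 70.9, and beyond its end at 53.3, 74.2 and 84.8.

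Ctsw encodes cathepsin W, a papain-like cysteine protease made mainly by natural killer and cytotoxic T cells (chromosome 19, 5465043 to 5468507, minus strand). Its promoter had signals of 0.861, 1.71 and 2.55, at percentiles 39.7, 70.8 and 77.3 (62.6 ± 20.1). It was the weakest of the 8 and had the widest spread of percentiles, and 12.6% of open genes ranked lower. Its lowest percentile was in replicate 1, the shortest list, and the spread is one of ranks, not of accessibility. A region inside the gene, 1216 bp downstream of the first start site, was about as strong, at 45.5, 68.3 and 75.5. The promoters of Ccdc85b and Fibp in the same window both outranked it, at means of 88.5 ± 2.17 and 84.0 ± 4.91. In the promoter stretch printed above, 14 bases lay in footprints of at least 2 libraries and none in those of all 3, and these 14 cover a GC box on the opposite strand, 36 bp before the start site.

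Ctsc encodes cathepsin C, the dipeptidyl peptidase that activates granzymes (chromosome 7, 88278085 to 88310888, plus strand). It had the strongest promoter of the 8, with signals of 4.48, 13.9 and 11.6 at percentiles 88.6, 97.0 and 95.4 (93.7 ± 4.45). Replicates 2 and 3 lay above replicate 1. It was also the gene with the fewest sites: 2 regions were found in all 3 libraries, both at the promoter, or 0.379 per 10 kb over 52.8 kb. The second, 671 bp upstream, stood at 24.8, 62.7 and 48.4, and the only other peak, beyond the gene, was seen in replicate 3 at percentile 5.29.

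Footprints at the Ctsc promoter recurred across libraries. Its window held 7 footprints in each library, and 3 of 11 merged footprints (27.3%) were found in all 3 libraries, against 15.6% in the genome. Of the 144 bases printed above, 62 lay in footprints of at least 2 libraries and 40 in those of all 3. The last capital run holds a GC box on the opposite strand, 13 bp before the start site, all of whose 6 bases lay in footprints of all 3 libraries.

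Ctsd encodes cathepsin D, the main aspartic protease of lysosomes (chromosome 7, 142375911 to 142388038, minus strand). Its promoter had signals of 3.89, 8.36 and 9.73, at percentiles 86.2, 93.4 and 94.0 (91.2 ± 4.35). Replicate 1 was again the lowest. The printed promoter footprint holds the E-box CACGTG, the core of the element read by the lysosomal gene regulator TFEB and its relatives, and also by USF factors. All 6 of its bases lay in footprints of at least 2 libraries and 1 base in those of all 3. The motif occurred within the promoter of no other gene of the 8 in the RefSeq promoter table, in which 7 of the 8 matched (Ctsw did not), and in 7.15% of all 32851 promoters there.

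Ctsd also had distal sites in all 3 libraries, 2 upstream of the gene and 2 in its introns. The upstream ones lay 5343 and 8763 bp before the nearest start site. The nearer stood at 52.9, 76.0 and 87.4 and the farther at 74.8, 78.6 and 88.6. The farther one, printed above, has a capital run that holds a CACCC box, all 6 bases of which lay in footprints of all 3 libraries. A RUNX motif (TGTGGT on the opposite strand) lies within the same run, fully inside footprints of at least 2 libraries. The intronic regions stood at 77.2, 76.2 and 84.6 and at 44.9, 56.9 and 80.2. A further region, at 61.5, 70.5 and 78.5, lay at starts annotated to Gm49369, a gene model that overlaps Ctsd on the same strand. The window held 1.87 regions per 10 kb, above 97.6% of genes.

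Serpinb9 encodes the inhibitor of granzyme B (chromosome 13, 33003250 to 33017957, plus strand). Its promoter had signals of 1.99, 3.06 and 4.42, at percentiles 71.8, 82.1 and 86.0 (80.0 ± 7.35). As at Srgn, the peak was not at the outermost start. It lay at the second start site, 33004541, 1291 bp downstream of the first, where a peak was called in replicate 3 alone, at percentile 47.3. The promoter held 8, 7 and 9 footprints. In the printed stretch an IRF motif on the opposite strand lies 41 bp before the open start, with 3 of its 10 bases in footprints of at least 2 libraries.

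A site 9709 bp upstream of Serpinb9 was stronger than the promoter in each library, at 77.9, 82.3 and 89.9. A second upstream region, 1709 bp before the first start, stood at 57.9, 66.0 and 82.3. This window depended most on the library: 3, 4 and 10 peaks were called in replicates 1, 2 and 3 (5.67 ± 3.79, or 3.50 on average without replicate 3), and 6 of its 10 regions were seen in replicate 3 alone. Those 6 stood at percentiles from 20.3 to 51.4. Over all 8 windows, 1, 3 and 12 regions were seen only in replicates 1, 2 and 3. Regions seen in 1 library were 16 of 62 in these windows and 33604 of 99408 in the genome, where the split by library was not counted. Of the 10 regions at Serpinb9, 4, the open promoter among them, were made wholly of 31-base words that occur once in the reference. The lowest share of such words was 57.8% in any region and 79.3% in a region found in all 3 libraries.

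Serpinb6a and Serpinb6b encode mouse counterparts of human SERPINB6, an inhibitor of cathepsin G among other proteases, and mouse Serpinb6b is known to inhibit granzyme A. They differed in the form of their open chromatin. At Serpinb6a (chromosome 13, 33917918 to 34002794, minus strand) the promoter had signals of 4.58, 7.63 and 8.44, at percentiles 89.0, 92.6 and 92.8 (91.5 ± 2.16), the narrowest spread of the 8. The peak covered 5 start sites from 34002740 to 34002794, while the 10 others, at 33922059 and between 33935848 and 33936198, had no peak in any library. This promoter lies back to back with that of Ripk1, a kinase of cell death and inflammatory signalling, and the peaks there cannot be assigned to one gene or the other.

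The stretch printed for Serpinb6a lies between the start sites of the 2 genes. A GC box on the opposite strand, 21 bp before the Serpinb6a start, lay with all 6 bases in footprints of all 3 libraries. In all, the ETS motif CCGGAA matched 3 times, on either strand, in the same 79 bases. Of these matches, 2 overlap each other on opposite strands. The outermost match had 4 of 6 bases in footprints of at least 2 libraries. Away from the promoter the 105 kb window was sparse. Its remaining regions found in all 3 libraries were an intronic one at 29.5, 61.5 and 68.0 and one at starts annotated to Nqo2, a quinone reductase gene, at a mean of 33.4 ± 5.61.

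At Serpinb6b (chromosome 13, 32965209 to 32979067, plus strand) the promoter was weaker, with signals of 1.64, 1.86 and 3.19 at percentiles 66.1, 72.6 and 81.2 (73.3 ± 7.57). The strongest site was the intronic one printed above, whose middle lies 778 bp downstream of a start site. It had percentiles of 77.2, 84.5 and 89.0 (83.6 ± 5.93) and exceeded the promoter in each library. It held 5, 8 and 8 footprints, and 59 of its 280 bases lay in footprints of at least 2 libraries. All 3 merged footprints found in every library at this gene were in that site, and none were in the promoter. Every region at Serpinb6a and Serpinb6b consisted wholly of 31-base words unique in the reference.

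The promoters of the 8 genes differed unequally between replicates 2 and 3, which have lists of similar length. This is 1 library against 1 library, so the difference itself has no replicate. What a unit of signal stands for is not stated, so log2 signal was centred on the 11507 promoters open in all 3 libraries, whose differences had an SD of 0.27 and ran from -0.44 to 0.39 between the 5th and 95th percentiles. The difference of replicate 2 minus replicate 3 was -1.21 at Nkg7, -0.75 at Serpinb6b, -0.54 at Ctsw and -0.50 at Serpinb9. These 4 of 8 lay below the 5th percentile of all promoters, which 5.01% did. It was -0.28 at Srgn, -0.19 at Ctsd, -0.11 at Serpinb6a and 0.30 at Ctsc, all inside that range. The 11507 promoters were not matched for signal. In replicate 2 the 4 genes below the range had the lowest promoter signals of the 8, 1.71 to 3.06, against 4.26 to 13.9. In replicate 3 they did not, since Nkg7 (6.32) lay above Srgn (5.28). At Nkg7 the difference of replicate 2 minus replicate 3 was lower than at all but 0.104% of promoters. Differences from replicate 1, the shortest list, were centred in the same way. Replicate 2 minus replicate 1 was -1.25 at Nkg7, -0.88 at Serpinb6b, -0.44 at Serpinb9 and -0.07 at Ctsw. Only Nkg7 of the 8 lay below the 5th percentile there, -0.94. Replicate 3 minus replicate 1 lay between the 5th and 95th percentiles at all 8.

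Cell type markers moved with the difference of replicate 2 minus replicate 3. It was below 0 at 10 of 10 natural killer markers (-1.35 to -0.15, median -0.93) and above 0 at 6 of 6 B cell markers with a peak in both libraries (0.61 to 1.29, median 1.09). It was also below 0 at 3 of 3 such monocyte and macrophage markers (-0.79 to -0.14, median -0.42) and 2 of 2 mast cell markers (-0.38 and -0.01), and at 2 of 4 T cell markers (-0.12 to 1.00). The summed promoter signal of the B cell list was 5.19, 39.0 and 20.3 in replicates 1, 2 and 3, and that of the natural killer list 17.8, 27.0 and 51.5. The neutrophil list was at 0 in all 3. Mast cell markers had peaks in 1, 2 and 2 of 5 genes, with summed signals of 0.979, 1.86 and 2.21: Kit in all 3 libraries, Hdc in 2, and Cpa3, Fcer1a and Ms4a2 in none. Monocyte and macrophage markers had peaks in 3 of 7 genes in each library, with summed signals of 2.88, 6.57 and 8.20. Of these, Cd68 gave 1.49, 5.19 and 5.85, Itgam was open in all 3 libraries too, and Csf1r, Adgre1 and C1qa had no peak in any. T cell markers had peaks in 2, 6 and 4 of 8 genes, with 5.38, 6.88 and 4.69. Ctsd, Ctsc and Srgn are also used by other blood cells, and the part of other cells in these values was not tested.

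**Figure D3:**
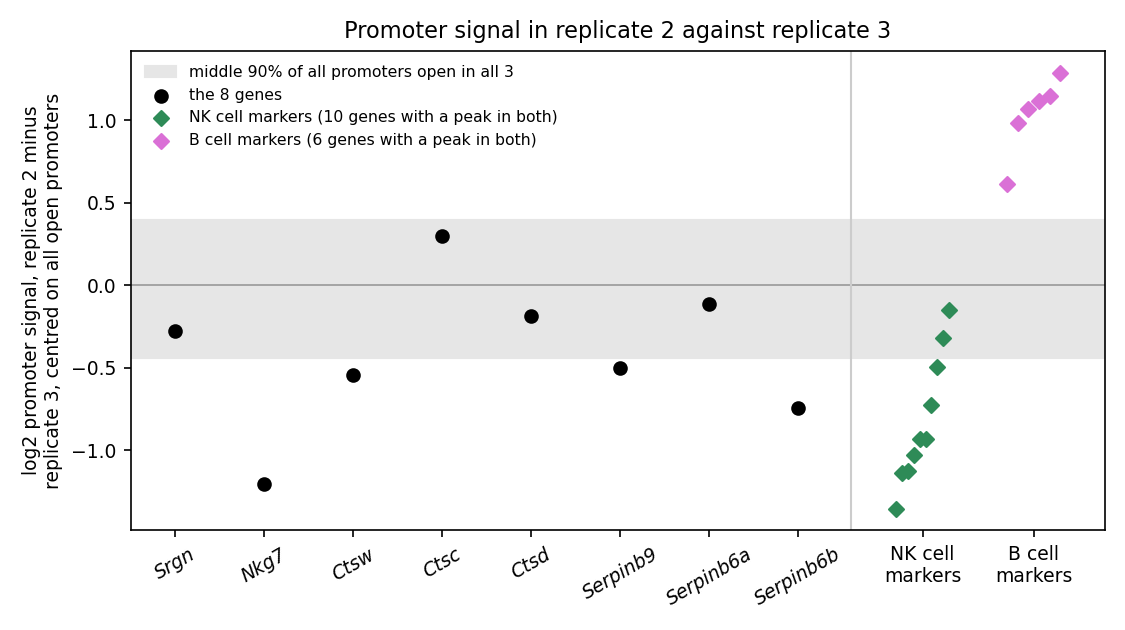
Log2 promoter signal of replicate 2 minus replicate 3, centred on all promoters open in all 3 libraries (vertical axis), for the 8 genes (black points), 10 natural killer markers (green diamonds) and 6 B cell markers (pink diamonds); the grey band spans the 5th to 95th percentile of 11507 promoters (-0.44 to 0.39). Nkg7, Serpinb6b, Ctsw and Serpinb9 lie below the band, and all 6 B cell markers lie above it.

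Other genes of the same pathways were examined in 4 lists. Of 14 further granule proteins, 10 had a promoter peak in all 3 libraries and 4 in 1 of them, against 52.5% of all genes with one in all 3. The highest were Calr, the chaperone calreticulin that is also stored in granules, at percentile 99.5 ± 0.329, the mannose 6-phosphate receptor gene M6pr at 96.9 ± 1.43 and Lamp1 at 92.9 ± 6.90. The lowest were Cst7, which encodes the cathepsin inhibitor cystatin F, at 74.4 ± 9.76, and Gzmk, which encodes granzyme K, at 22.2 ± 18.2. Gzma, Gzmc, Gzmm and Cd63 were the 4 with a peak in 1 library.

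Lysosomal proteases and their helpers were open in all 3 libraries in 12 of 15 cases, against 52.5% of all protein-coding genes. Lgmn, which encodes legumain, an asparaginyl endopeptidase, stood at 97.9 ± 1.41, Tpp1, a tripeptidyl peptidase gene, at 95.0 ± 2.41 and Psap, the saposin precursor gene, at 94.7 ± 1.99. The lowest open ones were Ctss at 55.7 ± 25.3 and Ctsf at 42.0 ± 22.8. Ctsg, which encodes the cathepsin G of neutrophils, and Ctsk, the cathepsin of bone-resorbing cells, had no peak in any library, and Ctsh had one in 2.

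Other clade B serpins were mostly without a promoter peak. Of 20 other clade B serpin genes, none had a promoter peak in all 3 libraries, 2 had one in some library and 18 in none, where 38.3% of all protein-coding genes had none. The 2 were Serpinb1a, in replicates 2 and 3, and Serpinb9b, in replicate 3. Among the 18 were all other listed copies of Serpinb9 (Serpinb9c to Serpinb9g) and Serpinb6c, Serpinb6d and Serpinb6e, all on chromosome 13 like the 3 open genes. Most of these promoters are unique in sequence. Within 500 bp of the start sites, over 90% of 31-base words occurred once in the reference at 15 of the 20 genes, with the lowest shares at Serpinb9f (43.6%), Serpinb9e (58.6%) and Serpinb9g (68.8%).

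The listed enzymes of proteoglycan sugar chain synthesis, heparan sulfate enzymes among them, were open nearly throughout. Of 15 such genes, 14 had a promoter peak in all 3 libraries, against 52.5% of all protein-coding genes, and Csgalnact1 in 2. The highest were Chst12, a chondroitin sulfotransferase gene, at 99.2 ± 0.725, B3galt6 of the linker region at 97.7 ± 1.01 and Chpf, a chondroitin polymerising factor gene, at 97.6 ± 1.34. The lowest were Xylt1, a xylosyltransferase gene, at 62.4 ± 21.1 and Ndst1, a heparan sulfate enzyme gene, at 48.8 ± 7.66. The Srgn promoter itself, at 82.3, ranked below the median of this list, 89.2, which was close to the 89.4 of all open genes.

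**Figure D4:**
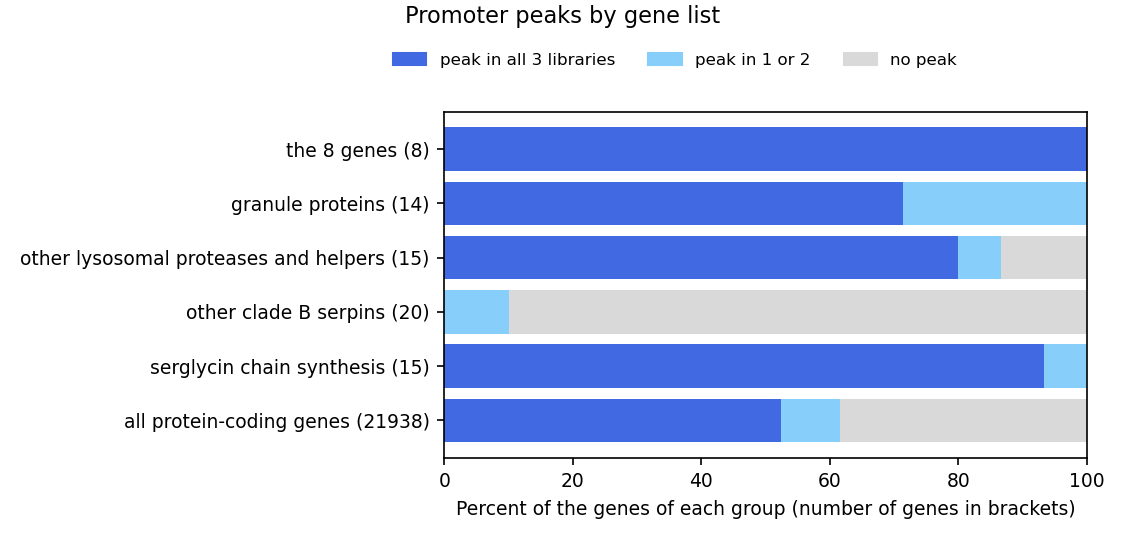
Share of genes (percent, horizontal axis) with a promoter peak in all 3 libraries (dark blue), in 1 or 2 (light blue) or in none (grey), for the 8 genes, 4 lists of related genes and all protein-coding genes, with the number of genes in brackets. The 8 genes have a peak in every library, and the other clade B serpins have none found in all 3 (18 of 20 in no library).

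Among 52 genes of these and the marker lists that were open in all 3 libraries, the one with the most similar promoter percentiles was found for each of the 8, as the straight-line distance over the 3 libraries. Serpinb6b lay nearest to Eomes, a transcription factor gene of natural killer cells, at a distance of 1.94 points, and Nkg7 to Ncr1, the gene of the receptor NKp46, at 4.39. Ctsd and Serpinb6a were both nearest to Xylt2 (1.75 and 1.63), Ctsc to Csgalnact2 (2.09) and Srgn to B4galt7 (2.03), all enzymes of chain synthesis. Serpinb9 was nearest to Lamp2 (5.0) and Ctsw to Itgam (12.4), the loosest match. Likeness over 3 libraries of unequal size is a coarse measure.

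Footprints in the 8 windows numbered 114, 163 and 172 in replicates 1, 2 and 3. Of these, 101, 133 and 148 lay inside a peak of the same library. Merged over libraries they gave 278 footprints, of which 47 (16.9%) were found in all 3, close to the 15.6% of all merged footprints in the genome. The shared ones lay in the genes' own promoters in 16 cases, in promoters of neighbouring genes in 17 and elsewhere in 14.

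Sequence motifs in these footprints were counted on both strands, as matches with at least 50% of the motif inside. The RUNX motif TGTGGT lay in 3.51%, 3.07% and 4.07% of footprints of the 8 genes in replicates 1, 2 and 3, against 1.20%, 1.79% and 2.16% of all footprints, from 4, 5 and 7 matches. The CACCC box lay in 5.26%, 4.91% and 4.07%, against 2.70%, 3.16% and 3.12%. The GC box lay in 11.4%, 13.5% and 8.72%, against 9.96%, 7.18% and 7.28%. The E-box lay in 1.75%, 1.84% and 1.74%, against 0.707%, 0.900% and 0.887%, from 2, 3 and 3 matches. Of these, 2 in each library were in the Srgn window. The E-boxes in footprints shared by all libraries in that window lay in the promoter of the neighbouring Vps26a, not in that of Srgn. The IRF motif (GAAA repeated after a gap of 2 bases) lay in 2.63%, 0.613% and 1.16%, against 0.178%, 0.258% and 0.260%, from 3, 1 and 2 matches. The ETS motif AGGAAG lay in 1.75%, 5.52% and 3.49%, against 1.5%, 2.13% and 2.10%, and the ETS motif CCGGAA in 1.75%, 3.07% and 3.49%, against 2.23%, 1.71% and 1.84%. The CRE motif TGACGT lay in 0.877%, 1.23% and 1.16%, against 1.23%, 0.954% and 1.03%. The CCAAT box lay in 1.75%, 0.613% and none, against 1.63%, 1.69% and 1.73%. The T-box motif AGGTGT and the AP-1 motif TGANTCA lay in none, where 0.598% to 0.715% and 0.163% to 0.424% of all footprints held them.

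Regions found in all 3 libraries were also searched over their central 150 bp. The RUNX motif lay in 11 of 35 (31.4%), against 15.8% of 35126 such regions in the genome. The ETS motif AGGAAG lay in 14 of 35 (40.0%), against 24.1%. The T-box motif lay in 4 of 35 (11.4%), against 8.87%, in no case with 50% of it or more inside a footprint. The GC box lay in 13 of 35 (37.1%), against 25.8%, the CACCC box in 8 (22.9%), against 18.3%, and the CCAAT box in 6 (17.1%), against 18.3%. Each of the other 5 motifs lay in 1 to 3 of the 35. Part of these footprints and regions lie in promoters of neighbouring genes. With so few matches per gene, these shares describe the windows and were not tested.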

How the data were processed

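The 3 DNase-seq libraries of natural killer cells were analysed as 1 group. Per the deposited file descriptions, each list was made per library on assembly mm10. The aligner and the callers of peaks and footprints are named by no source used here. Read depth is not given either, so no counting intervals are given and precision rests on 3 replicates. The authors deposited 2 peak lists per library, each with a signal value per peak derived from the filtered alignments of that library, in a unit not stated. The longer list was used, and signal was ranked within the library. The deposited footprint lists carry a constant score of 0.01, so only their positions were used. The authors also deposited intervals of the cut rate with a q-value, or false discovery rate, up to 0.05. In each library such an interval lay within 500 bp of a start site at each of the 8 genes. The share of all protein-coding genes with one is not given here, so nothing is read from this count.

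Genes and 93513 start sites came from GENCODE release M21 and sequence from GRCm38. Peaks were merged across libraries where they overlapped by at least 1 bp, with Python 3.11.15, numpy 2.4.6 and pandas 2.3.3, and overlaps were tested on simulated data and against bedtools 2.31.1 (5 checks, 0 differences). Motifs were searched as 11 strings on both strands, and uniqueness as 31-base words. All 8 genes are described. From other lists, values are given for the 3 highest and 2 lowest by mean percentile among genes open in all 3 libraries, with the nearest list gene and the neighbours in each window. Serpinb10 did not match the annotation. The genes and lists were chosen with earlier results of these data known. Alternatives were the shorter peak list, other promoter widths, flanks and start sites, a 50% reciprocal overlap and leaving out each replicate; start sites of coding transcripts alone were added after seeing the data.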

Additional observations from a re-analysis of the deposited data

How the results depend on the processing

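All 8 genes kept a promoter peak in all libraries used under each alternative except the 5′ end of the gene model alone, which left 6 (Srgn and Serpinb9 were lost). Without the flanks, 19 regions found in all 3 libraries remained in place of 35, the mean number of footprints per library was 71 in place of 150, and the mean number of peaks per window 3.42 in place of 6.375. The median promoter percentile, 83.1, was 76.4 in the shorter peak list and 42.19 among promoter peaks alone. Leaving out each replicate in turn gave 8 genes throughout, 35 to 44 regions, 139 to 168 footprints, medians of 80.1 to 86.2 and 5.81 to 7.06 peaks per window. At Serpinb9, 5.67 peaks became 3.50 without replicate 3. The Serpinb6b promoter stood at percentile 83.6 in place of 73.3 with 1000 bp on each side, which reaches its intronic site. The median difference between replicates 2 and 3, -0.39, ranged from -0.41 to -0.39, and each of the 8 kept its sign. No paired analysis was possible because there is 1 group. Depth is unknown, so the lack of a peak, above all in replicate 1 with 40484 peaks, does not measure closed chromatin.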
